A study of Mus musculus with 8 samples.

Results

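The 9 genes described here encode transcription factors that hepatocytes, the main cells of the liver, use to keep their identity. They are Hnf4a, the 3 pioneer factors Foxa1, Foxa2 and Foxa3, the leucine zipper factor Cebpa, the homeodomain factor Onecut1 and the nuclear receptors Nr1h4, Nr1i2 and Nr1i3. They were taken by symbol from the 55536 genes counted, and all 9 passed the filter on low counts, which kept 15998 genes. The counts come from RNA sequencing of 8 HCA-1 tumors. HCA-1 is a mouse hepatocellular carcinoma line that was implanted into the liver of male C3H mice aged 6 to 8 weeks. On day 17 the mice received either saline (4 tumors, Control 1, 3, 4 and 5) or a single intravenous dose of PFSUV-IMQ (4 tumors, IMQNP 1 to 4), and the tumors were taken 3 h later. PFSUV-IMQ is imiquimod, an agonist of the RNA sensor TLR7, loaded into phospholipid-free small unilamellar vesicles. All mice carried the same cell line and none was without a tumor, so no normal liver stands beside these values. The labels give each tumor a number of its own but do not state that each came from a separate mouse, so p-values measure the spread between these samples.

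Hepatocyte identity rests on a network of factors that bind each other's genes as well as those of albumin, the apolipoproteins and the enzymes of gluconeogenesis and bile acid metabolism. Foxa proteins open chromatin, Hnf4a and Cebpa then act on a large share of hepatocyte genes, and Onecut1 (also called HNF6) takes part in the development of hepatocytes and bile ducts. Nr1h4 (FXR) is the receptor for bile acids, while Nr1i2 (PXR) and Nr1i3 (CAR) sense foreign compounds and switch on drug-metabolizing enzymes. Inflammation and interferon are known to lower parts of this program in liver. The questions asked here were how high each factor stood, how closely it ran with albumin (Alb, a defining transcript of hepatocytes), and whether it differed between the PFSUV-IMQ and saline tumors.

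On GRCm38, in the GENCODE M21 annotation, Hnf4a lies on the plus strand at chr2:163506808-163572910, Cebpa on plus at chr7:35119293-35121928, and Onecut1 on plus at chr9:74861921-74891781. The Foxa genes all lie on the minus strand, Foxa1 at chr12:57540628-57546916, Foxa2 at chr2:148042877-148046969 and Foxa3 at chr7:19013284-19023538. Nr1h4 lies on minus at chr10:89454234-89533585, Nr1i2 on minus at chr16:38248323-38294824 and Nr1i3 on plus at chr1:171213970-171220701. Of the exon bases of Nr1i3, 74.9% (3304 bases) are also exon of Tomm40l on the opposite strand, and no source used here says whether reads were counted by strand. Of those of Onecut1, 52.8% are shared with Gm20649, a gene of the same strand with 0 counts in every tumor, and 54.4% of its 50-base words also occur in Gm20649 or Onecut3. Onecut1 is therefore uncertain. The longest transcripts of the other 8 factors shared no 50-base word with transcripts of another gene in the sense direction. Words of the opposite strand were not searched, so this does not cover the overlap of Nr1i3 with Tomm40l. Cebpa likewise shared 51 exon bases (1.93%) with Gm45091 on the opposite strand.

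RefSeq gives 12 start sites for the 9 genes on GRCm38.p6. The windows that precede 4 of them are printed here for 3 factors. These are the factor that ran closest to Alb, the factor that did not rise with Alb in the tumors richest in it, and the factor with the largest difference between the groups. Each is written 5′ to 3′ on the strand of the gene, without any base of an annotated exon, and capitals mark the motif matches. Hnf4a has an upstream start, known as P2, and a downstream start, known as P1, which adult hepatocytes mainly use. The counts per gene do not separate them.
Hnf4a upstream start, chr2:163506607-163506807, plus strand: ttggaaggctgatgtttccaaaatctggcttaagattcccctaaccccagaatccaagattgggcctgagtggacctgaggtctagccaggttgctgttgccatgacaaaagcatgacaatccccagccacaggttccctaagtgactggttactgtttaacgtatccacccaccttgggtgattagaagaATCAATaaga
Hnf4a downstream start, chr2:163546943-163547154, plus strand: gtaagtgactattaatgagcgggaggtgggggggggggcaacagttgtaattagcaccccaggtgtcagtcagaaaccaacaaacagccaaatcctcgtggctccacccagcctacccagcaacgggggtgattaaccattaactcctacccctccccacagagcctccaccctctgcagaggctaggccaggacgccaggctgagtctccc
Foxa1, chr12:57546122-57546361, minus strand: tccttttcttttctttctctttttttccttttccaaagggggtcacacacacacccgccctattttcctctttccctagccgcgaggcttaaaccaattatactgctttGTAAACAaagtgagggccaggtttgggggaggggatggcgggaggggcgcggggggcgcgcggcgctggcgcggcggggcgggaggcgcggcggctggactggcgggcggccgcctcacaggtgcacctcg
Nr1i3, chr1:171213720-171213969, plus strand: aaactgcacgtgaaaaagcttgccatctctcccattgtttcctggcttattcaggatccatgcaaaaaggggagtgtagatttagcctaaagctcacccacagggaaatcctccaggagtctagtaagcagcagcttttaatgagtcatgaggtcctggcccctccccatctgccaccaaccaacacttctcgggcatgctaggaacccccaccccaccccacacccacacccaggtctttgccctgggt

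The motifs searched, on both strands and over all 32851 RefSeq start windows, were TGTTTAC for Foxa factors, CAAAGTCCA for Hnf4a, TTGCGCAA for C/EBP factors and ATTGAT for Onecut factors. No pair of them overlaps in the windows printed. The upstream window of Hnf4a held an Onecut match at position -59 from the RefSeq start. Foxa1 carried a Foxa match at -141. The downstream window of Hnf4a and that of Nr1i3 held no match. Of all start windows, 3.65% held the Foxa letters, 0.475% those of Hnf4a, 0.183% those of C/EBP and 7.54% those of Onecut. Such matches describe the letters in these windows only.

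The libraries held 16883911 to 27687756 counts in the controls and 17008151 to 18527613 in the PFSUV-IMQ tumors, so 3 counts stood for 0.108 to 0.178 CPM, which are counts scaled to a library of 1000000. All 10 interferon-stimulated genes listed were called higher after PFSUV-IMQ, with a summed CPM of 339.3 to 587.1 in the controls and 6245 to 19000 in the treated tumors. Hepatocyte markers were present in every tumor, and Alb ranged over 7.74-fold. Control 4 and IMQNP 2 stood apart, with Alb at 22450 and 22740 CPM, against 2938 to 9027 CPM in the other 6 tumors. IMQNP 2 also had the highest share of mitochondrial reads, 6.65%, while Control 4 was at 4.19% and all 8 tumors lay between 1.37% and 6.65%. The 6 cholangiocyte markers summed to 2031 CPM in Control 4 and 3146 CPM in IMQNP 2, the lowest of each group, with the other tumors between 6084 and 8047 CPM. That sum is mostly Spp1, which is also made by liver cancer cells and macrophages. In such bulk samples, fewer cells of a type and less RNA per cell cannot be told apart, and neither can hepatocytes of the host liver and hepatocyte genes expressed by HCA-1 cells. For the 9 factors, mean levels, ratios and tests between the groups are given also without these 2 tumors, which leaves 3 in each group, while the spread and the results of the other gene lists are given with all 8.

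Ordered by TPM (transcripts per 1000000), a scale that divides counts by the exon length of each gene and so allows genes to be compared, Cebpa was the most abundant factor and Onecut1 the least. Cebpa averaged 73.6 ± 41.4 TPM (SD, n = 8 tumors), with a lowest value of 39.3, a median of 62.9 and a highest value of 162. It was above Hnf4a in 7 of 8 tumors. Hnf4a averaged 45.0 ± 37.6 TPM, with 14.1, 27.6 and 108 TPM as its lowest, median and highest values. Foxa1, at 28.6 ± 9.88 TPM, had a higher median than Hnf4a (28.2 TPM), and Hnf4a exceeded it in only 3 of 8 tumors. Nr1h4 followed at 25.5 ± 20.2 TPM and Foxa3 at 23.2 ± 18.8 TPM, each above the other in 4 of 8 tumors. Foxa2 (5.88 ± 3.24 TPM) and Nr1i2 (5.87 ± 4.36 TPM) likewise exceeded each other in 4 of 8 tumors. Foxa3 was above Foxa2, and Nr1i2 above Nr1i3, in 8 of 8. Nr1i3, at 1.29 ± 2.05 TPM, and Onecut1, at 0.651 ± 0.364 TPM, closed the order, with Nr1i3 higher in 4 of 8 tumors. Cebpa and Hnf4a changed places in IMQNP 2, at 92.4 and 108 TPM. Neighbours that change places between tumors are not separated beyond their spread. Over the 6 tumors other than Control 4 and IMQNP 2, Cebpa (55.8 ± 20.1 TPM) still led, followed by Foxa1 (31.5 ± 8.13), Hnf4a (25.0 ± 6.80), Nr1h4 (15.7 ± 6.20), Foxa3 (14.5 ± 5.43), Foxa2 (4.43 ± 1.79), Nr1i2 (4.13 ± 1.21), Nr1i3 (0.588 ± 0.497) and Onecut1 (0.516 ± 0.229).

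**Figure D1:**
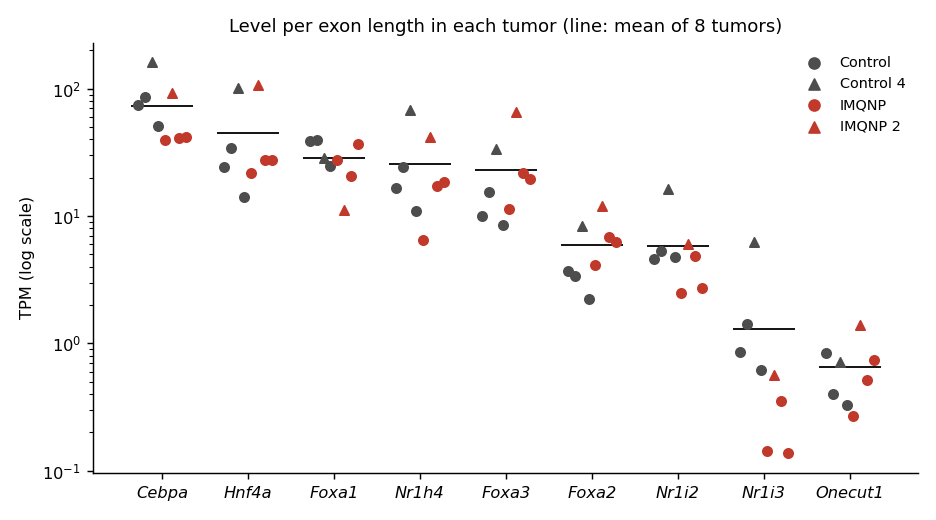
Level of the 9 factors in each of the 8 tumors, in TPM on a log axis, ordered by their mean (line). Cebpa averaged 73.6 TPM and Onecut1 0.651 TPM, and Foxa1 is lowest in IMQNP 2 (11.2 TPM), where Hnf4a and Foxa3 are highest.

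Among all 15998 genes tested, whose median level was 12.3 TPM, Cebpa stood at the 88.2 percentile, Hnf4a at 80.6 and Foxa1 at 71.2, while Nr1i3 stood at 11.2 and Onecut1 at 4.61. The levels of Nr1i3 and Onecut1 are uncertain, since 74.9% and 52.8% of their exon bases are shared with another gene. How reads in shared bases were counted is not known. Albumin itself averaged 10940 ± 8079 TPM, and the 9 factors together summed to 113.6 to 425.9 TPM in a tumor. The scatter between tumors of the same group was large for most factors. Their biological coefficient of variation, the part of the spread that counting does not explain, was 77.7% for Nr1i3, 71.9% for Hnf4a, 68.1% for Nr1h4 and 64.1% for Foxa3. Alb was at 66.5%, and the median over all genes was 28.9%. Foxa1 was the steadiest factor, at 31.4%.

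The highest values mostly fell in the tumors rich in Alb. Of the 9 factors, 7 were highest among the controls in Control 4, as were 31.3% of all genes, and 8 were highest among the treated tumors in IMQNP 2, as were 34.8% of all genes. In both groups this held for 7, against 21.1% of all genes. Hnf4a in Control 4 was 3.01 times the next control, and in IMQNP 2 it was 4.75 times the next treated tumor. Cebpa stood 1.89 and 2.72 times above the next tumor, and Nr1h4 2.84 and 2.90 times. Foxa1 was highest in neither. It stood at 0.734 of the highest other control in Control 4 and at 0.394 of the highest other treated tumor in IMQNP 2. In Control 4 it lay within the range of the other controls. Onecut1 was at 0.932 of the highest other control in Control 4 but was highest in IMQNP 2. Foxa1 had 43.3, 47.7, 35.0 and 26.3 CPM in Control 1, 3, 4 and 5, and 32.0, 17.7, 27.2 and 45.0 CPM in IMQNP 1 to 4. The lowest of these 8 values was that of IMQNP 2, which like Control 4 was rich in Alb.

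**Figure D2:**
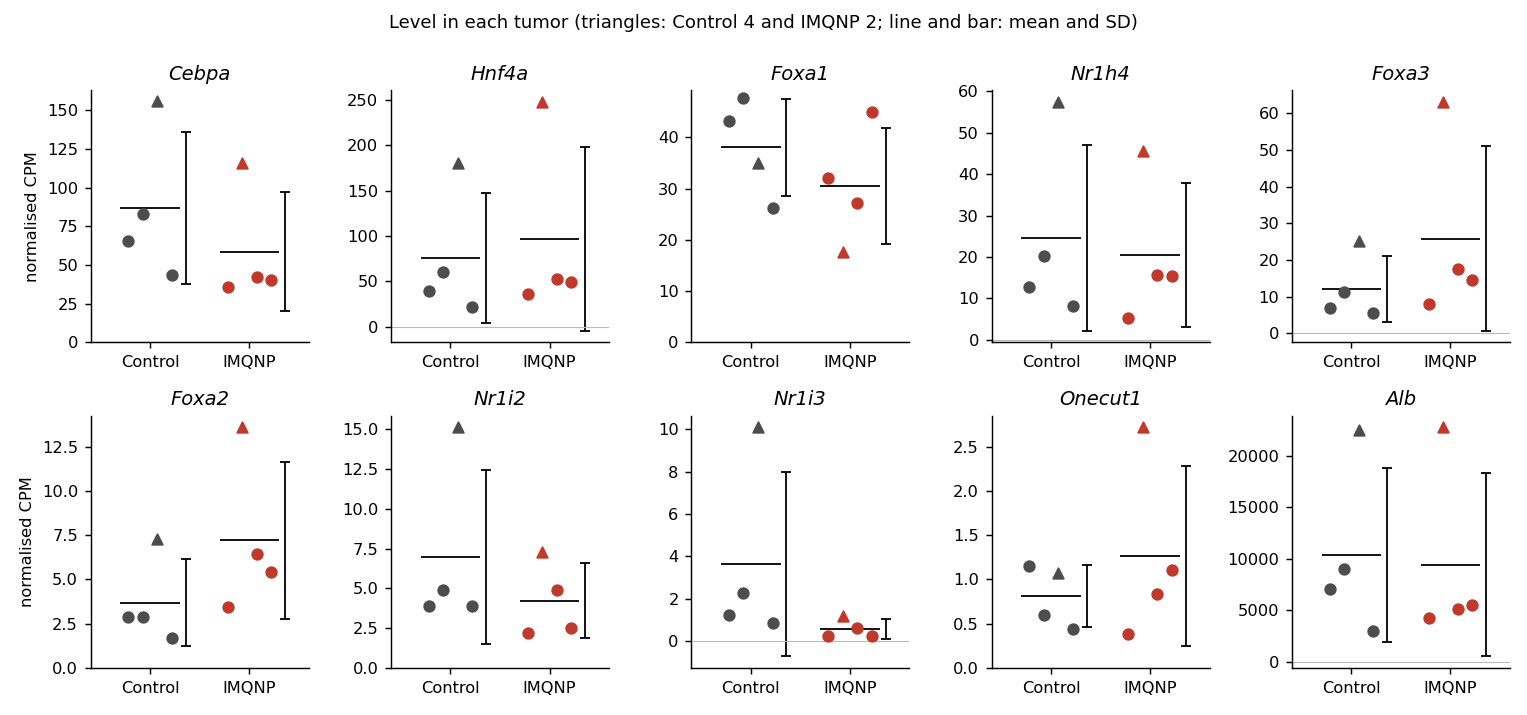
Normalised CPM of the 9 factors and of Alb in each tumor, with the mean and SD of each group (n = 4); triangles mark Control 4 and IMQNP 2. For every factor the groups overlap, and for 7 of 9 factors the highest tumor of both groups is a triangle.

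Because Control 4 and IMQNP 2 form a cluster of their own in Alb, with a gap of 1.31 on the log2 scale against a next gap of 0.54, no correlation over all 8 tumors is given. Over the other 6 tumors, Hnf4a (r = 0.83, exact permutation p = 0.0556, rho = 0.77, p = 0.103) and Foxa1 (r = 0.83, exact permutation p = 0.0389, rho = 0.89, p = 0.0333) ran closest to Alb on log2 CPM. Adjusted over all genes, these p-values of r were 0.266 and 0.235, and no gene passed, since the smallest p that 720 pairings of 6 tumors gave was 0.00278 and the smallest adjusted p was 0.121. Of the 9 factors 2 had r above 0.8, as did 11.8% of all genes. Cebpa followed at r = 0.79 and Nr1h4 at 0.72, with Onecut1 at 0.52, Nr1i3 at 0.51, Foxa3 at 0.39, Nr1i2 at 0.34 and Foxa2 at 0.29, with exact permutation p of 0.0583 to 0.581. The median over the factors was 0.52 and over all other genes -0.01. These tumors include both groups, and after each group's own mean was taken out, r rose to 0.98 for Cebpa and 0.96 for Hnf4a, and it was 0.82 for Foxa1, 0.79 for Foxa2, 0.71 for Nr1h4, 0.70 for Foxa3, 0.65 for Nr1i3, 0.55 for Onecut1 and 0.28 for Nr1i2. With the mean of the other hepatocyte markers in place of Alb, and no group mean taken out, r was 0.96 for Hnf4a, 0.75 for Foxa3, 0.74 for Foxa2, 0.70 for Nr1h4, 0.66 for Onecut1 and 0.64 for Foxa1, while Cebpa was at 0.39, Nr1i2 at 0.16 and Nr1i3 at 0.09.

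**Figure D3:**
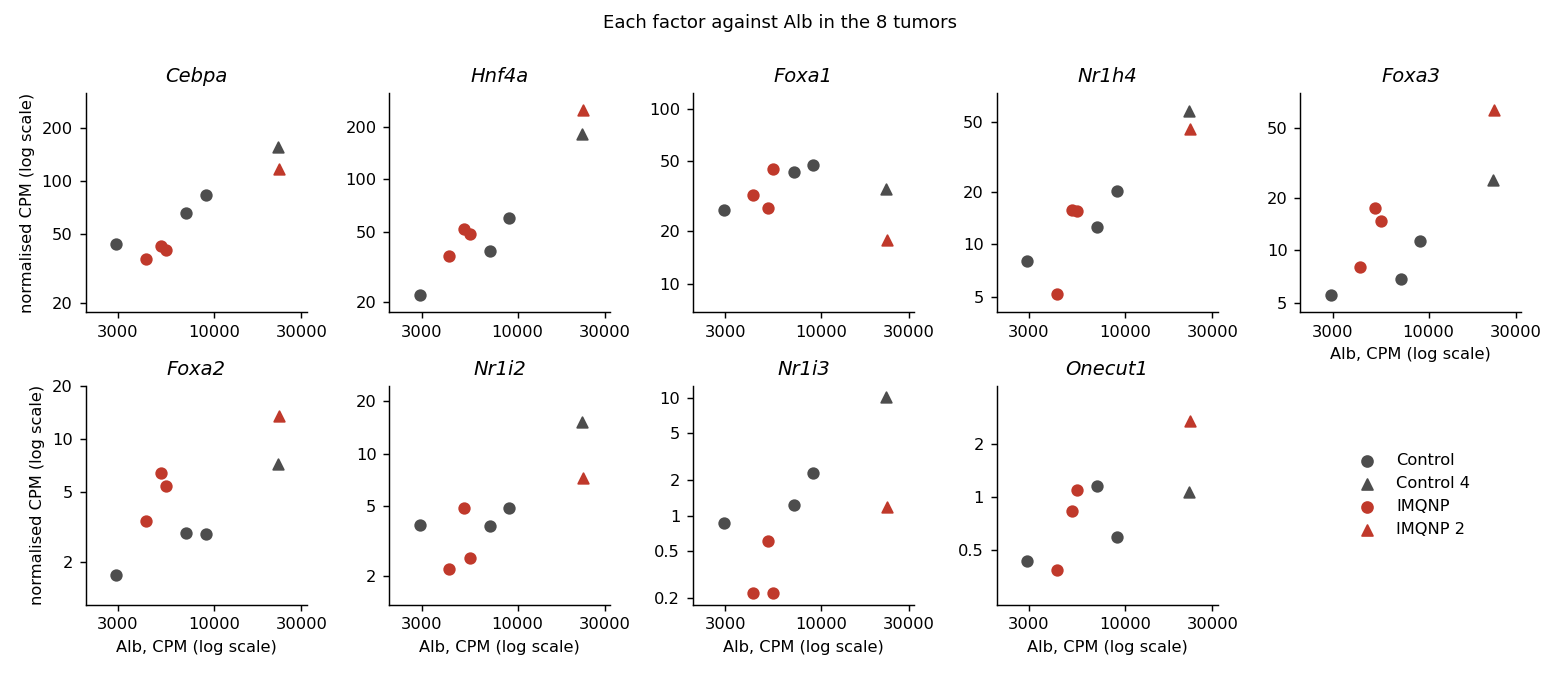
Each factor (normalised CPM, log axis) against Alb (CPM, log axis) in the 8 tumors. Hnf4a is highest in the tumors of highest Alb (triangles), whereas Foxa1 is at 35.0 and 17.7 CPM there. The PFSUV-IMQ tumors lie above the controls for Foxa2 and Foxa3 and below them for Nr1i3 at like Alb.

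Set against Alb within each of the 8 tumors, Hnf4a was the most constant factor. Its CPM ranged over 11.4-fold, but its ratio to Alb ranged over only 1.97-fold. Without Control 4 and IMQNP 2 it ranged over 1.84-fold, and Foxa1 to Alb was then tighter, at 1.70-fold. Among pairs of the factors, the tightest ratio was that of Cebpa to Nr1i2, which ranged over 1.94-fold, followed by Foxa2 to Foxa3, at 1.97-fold. Over the other 6 tumors these ranges were 1.94-fold and 1.67-fold. The widest over the 8 tumors was Foxa1 to Nr1i3, at 58.8-fold (9.77-fold over the 6), and each of the 10 widest involved Foxa1 or Nr1i3. Foxa1 to Alb had the lowest values in IMQNP 2 (0.781 CPM per 1000 CPM of Alb) and Control 4 (1.56).

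Between PFSUV-IMQ and saline tumors, none of the 9 factors was called changed, and the groups overlapped for each. A gene was called at a Benjamini-Hochberg adjusted p under 0.05 in edgeR's quasi-likelihood test and a log2 fold change beyond 1, which 2.26% of all genes met upward and 0.2% downward. One factor, Nr1i3, had an unadjusted p under 0.05, as did 13.0% of all genes. CPM did not overlap between groups for 6% of all genes with the treated tumors higher and for 3.28% with them lower, against 0 of the 9 factors. Of the 9 factors, 4 had a log2 fold change above 0 and 5 below, with a median of -0.27 beside -0.03 over all genes. Alb itself was at 10370 ± 8441 CPM (SD, n = 4) in the controls and 9401 ± 8904 CPM in the treated tumors (log2 fold change -0.14 ± 0.71 (SE), adjusted p = 0.964 in edgeR). Without Control 4 and IMQNP 2 no factor was called either. The log2 fold changes were then 0.997 for Foxa2 (adjusted p = 0.292), 0.74 for Foxa3 (0.536), -0.71 for Cebpa (0.275), -2.08 for Nr1i3 (0.154) and 0.16 for Hnf4a (0.924), while Foxa1, Nr1h4, Nr1i2 and Onecut1 lay between -0.42 and 0.06, and Alb was at -0.38.

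Nr1i3, the xenobiotic receptor CAR, had 1.24, 2.28, 10.1 and 0.869 CPM in Control 1, 3, 4 and 5, from 27, 65, 235 and 16 reads. In IMQNP 1 to 4 it had 0.221, 1.19, 0.613 and 0.221 CPM, from 4, 17, 11 and 4 reads. The treated tumors were low, but IMQNP 2 lay within the range of the controls. The log2 fold change was -2.72 ± 0.88 (SE) with an unadjusted p of 0.0123 and an adjusted p of 0.191 in edgeR. DESeq2's Wald test, which called 3.12% of all genes higher and 0.67% lower, called Nr1i3 (-2.69 ± 0.78, adjusted p = 0.0170) and no other factor. Tomm40l, whose exons overlap those of Nr1i3 on the other strand, was at 5.66 to 8.74 CPM in the controls and 5.35 to 8.61 in the treated tumors (log2 fold change -0.16, adjusted p = 0.857 in edgeR). How many reads the pair share was not tested. Nr1i2, the related receptor PXR, was at 6.97 ± 5.49 and 4.23 ± 2.36 CPM (-0.73 ± 0.55, adjusted p = 0.677 in edgeR).

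The Foxa genes did not share a direction. Foxa3 had 6.82, 11.3, 25.1 and 5.54 CPM in the 4 controls and 8.06, 63.1, 17.5 and 14.7 CPM in IMQNP 1 to 4 (log2 fold change 1.08 ± 0.67, adjusted p = 0.588 in edgeR). Foxa2 had 2.90, 2.88, 7.26 and 1.68 CPM in the controls and 3.42, 13.6, 6.41 and 5.40 CPM in the treated tumors (0.96 ± 0.53, adjusted p = 0.515). For Foxa2, IMQNP 1, 3 and 4 lay above 3 of the controls but below Control 4, the control rich in Alb. For Foxa3 this held for IMQNP 3 and 4. Foxa1 averaged 38.1 ± 9.43 and 30.5 ± 11.3 CPM (-0.32 ± 0.29, adjusted p = 0.746), so any difference was within its spread.

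Hnf4a had 39.1, 60.0, 181 and 21.8 CPM in the controls and 36.4, 248, 52.2 and 49.0 CPM in IMQNP 1 to 4 (log2 fold change 0.35 ± 0.76, adjusted p = 0.916 in edgeR). This value depended on which tumors rich in Alb were kept. The log2 fold change was -0.73 without IMQNP 2, 1.251 without Control 4 and 0.16 without both. Cebpa had 65.2, 82.7, 156 and 43.4 CPM in the controls and 35.9, 116, 42.5 and 40.2 CPM after PFSUV-IMQ. Of the treated tumors, 3 lay below every control, and only IMQNP 2 lay among them (-0.57 ± 0.47, adjusted p = 0.721 in edgeR). Nr1h4, the bile acid receptor, was at 24.6 ± 22.5 and 20.5 ± 17.5 CPM (-0.27 ± 0.71, adjusted p = 0.934), and Onecut1 at 0.434 to 1.15 and 0.386 to 2.73 CPM (0.61 ± 0.58, adjusted p = 0.758).

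With Alb held equal, some of these differences stood out from a smaller spread. When the log2 CPM of Alb was a covariate in the edgeR fit, 3.99% of all genes were called higher and 0.869% lower. Among the factors, Foxa2 (log2 fold change 1.12 ± 0.23, adjusted p = 0.0113) and Foxa3 (1.07 ± 0.23, adjusted p = 0.0164) were called higher and Nr1i3 (-2.17 ± 0.44, adjusted p = 0.0119) lower. Cebpa passed the adjusted p but not the limit on the fold (-0.49 ± 0.13, adjusted p = 0.0450), and Hnf4a passed neither (0.49 ± 0.15, adjusted p = 0.0850). With both tumors of highest Alb left out, none of the 3 calls was kept. Foxa2 was then at 1.17 (adjusted p = 0.0570), Foxa3 at 0.91 (0.113) and Nr1i3 at -1.80 (0.0989). Leaving out IMQNP 2 alone also ended all 3 calls, with Foxa2 at 1.16 (adjusted p = 0.0678), Foxa3 at 0.90 (0.145) and Nr1i3 at -1.80 (0.117). Without Control 4, Foxa2 kept its call (1.202, adjusted p = 0.0255), while Foxa3 was at 1.045 (0.0689) and Nr1i3 at -1.79 (0.0519). Without IMQNP 3, Nr1i3 kept its call (-2.60, adjusted p = 0.00486), Foxa3 was at 0.96 (0.0576), and Foxa2, at 0.997 (0.0345), fell under the limit on the fold. Without Control 1, Foxa3 alone lost its call, at 0.95 (0.0351), under the same limit.

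The ratio to Alb in each tumor, taken from the same counts, gave the same 3 factors and Hnf4a without a fit. Hnf4a stood at 5.53, 6.65, 8.05 and 7.43 CPM per 1000 CPM of Alb in the controls, and at 8.54, 10.9, 10.2 and 8.94 in IMQNP 1 to 4. Foxa3 was at 1.31 ± 0.40 and 2.69 ± 0.62 (SD, n = 4), Foxa2 at 0.407 ± 0.119 and 0.910 ± 0.276, and Nr1i3 at 0.294 ± 0.115 and 0.0660 ± 0.0362. For the 3 that were higher the groups nearly touched, since the highest control and the lowest treated tumor stood at 1.885 and 1.891 for Foxa3, at 0.573 and 0.599 for Foxa2, and at 8.05 and 8.54 for Hnf4a. The groups did not overlap for these 4 factors, 3 of them higher and 1 lower, against 2.15% of all genes higher and 0.638% lower. The exact permutation test over the 70 groupings of 4 against 4 gave each a two-sided p of 0.0286, the smallest it can give. Any factor without overlap gets this p, so it only restates the lack of overlap, and it was not adjusted over the 9 factors. The other 5 factors overlapped, with p = 0.171 for Cebpa and higher values for Nr1h4, Nr1i2, Onecut1 and Foxa1 in the same exact permutation test. Alb was shared by all 9 ratios, so they are not independent of each other. Without Control 4 and IMQNP 2 the same 4 factors did not overlap, and neither did Cebpa, which was lower after PFSUV-IMQ, against 5.33% of all genes higher and 1.2% lower.

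Over the 8 tumors, Nr1i3 was the only factor called both with Alb and with the other hepatocyte markers held equal. Its call at equal Alb ended without IMQNP 2. Cebpa passed the adjusted p with both measures but not the limit on the fold, and Foxa2 and Foxa3 were called with Alb only. The other 12 hepatocyte markers summed to 10540, 9576, 23200 and 3329 CPM in the controls and to 6870, 33840, 10020 and 9653 CPM in IMQNP 1 to 4. Of the 13 tested markers, Alb included, 9 had a log2 fold change above 0 and 4 below, with a median of 0.45, while Alb was at -0.14. The largest were those of Hpx (0.88), Fgg (0.83) and Fga (0.77). These genes stood at 5127, 3907 and 5573 CPM in IMQNP 2, against 2101, 1579 and 2397 CPM in Control 4. They thus weighed on the marker sum and mean more in IMQNP 2 than in Control 4. How far they moved the ratios and the fit was not tested. Whether either measure follows hepatocyte content alone was not tested either. With the mean log2 CPM of the other 12 markers as the covariate, 3.35% of all genes were called higher and 1.79% lower. Nr1i3 was called (-2.83 ± 0.44, adjusted p = 0.00246 in edgeR). Foxa2 (0.71, adjusted p = 0.0779) and Foxa3 (0.54, adjusted p = 0.238) were not, Cebpa was at -0.86 ± 0.15 (adjusted p = 0.00586), and Hnf4a was at -0.12 (adjusted p = 0.764). Without Control 4 and IMQNP 2, where 2.41% of all genes were called higher and 0.753% lower with this covariate, Nr1i3 was again called (-2.27, adjusted p = 0.0394), Cebpa was at -0.84 (0.0109), Foxa2 at 0.81 (0.152), Foxa3 at 0.53 (0.307) and Hnf4a at -0.02 (0.959).

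Per 10000 CPM of the summed markers, Nr1i3 stood at 1.18 to 4.35 in the controls and 0.229 to 0.612 after PFSUV-IMQ, and Cebpa at 61.8 to 130.3 and 34.2 to 52.3. The groups did not overlap for these 2 factors (exact permutation p = 0.0286 each), with 1.88% of all genes lower and 1.36% higher by the same ratio. The ratios of the other 7 factors overlapped, Hnf4a among them, at 60.8 ± 17.1 and 57.2 ± 10.7. Nr1i3 was thus the only factor whose groups were apart by both ratios over the 8 tumors. Without Control 4 and IMQNP 2, Nr1i3 and Cebpa were again the only factors apart by this ratio, against 5.23% of all genes lower and 2.21% higher, so that both were then apart by both ratios.

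**Figure D4:**
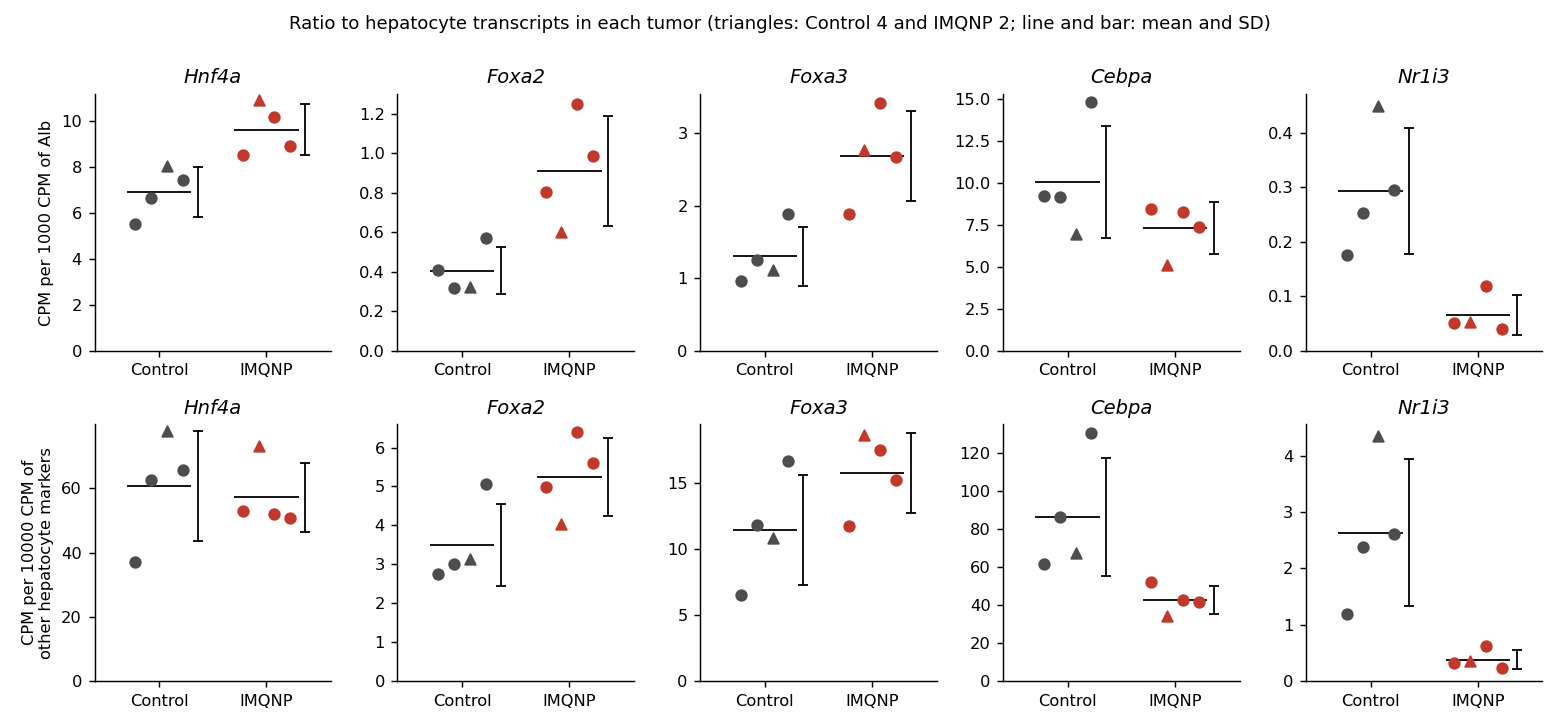
Ratio of 5 factors to Alb (upper row, CPM per 1000 CPM of Alb) and to the sum of the other 12 hepatocyte markers (lower row, CPM per 10000 CPM) in each tumor, with mean and SD (n = 4). Nr1i3 is apart in both rows, whereas Hnf4a, Foxa2 and Foxa3 are apart only in the upper row and Cebpa only in the lower.

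**Figure D5:**
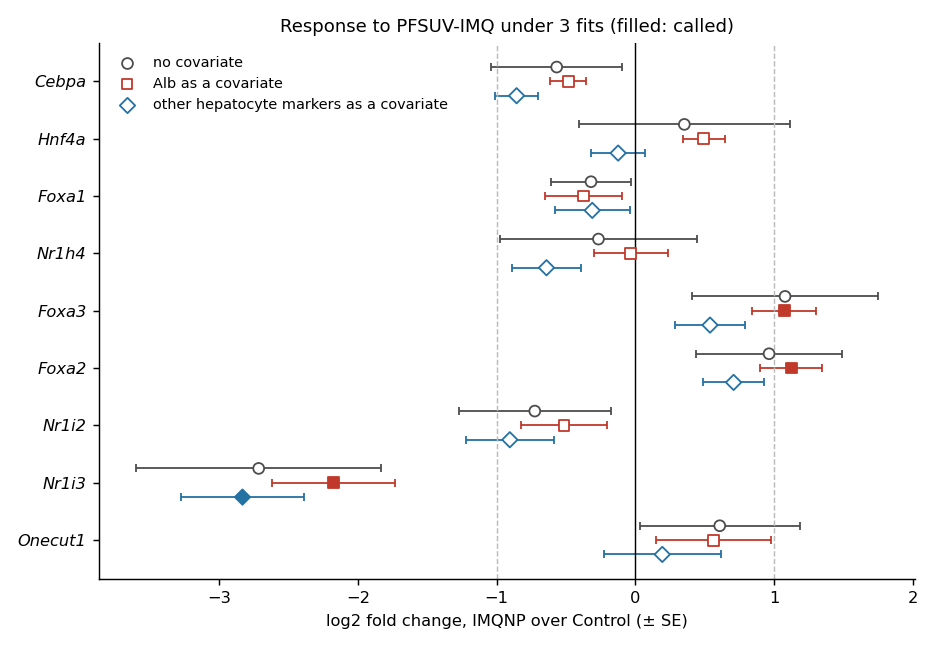
Log2 fold change of PFSUV-IMQ over saline tumors with its SE for the 9 factors, without a covariate, with Alb and with the other hepatocyte markers as the covariate; filled symbols were called, and dashed lines mark a log2 fold change of 1 in size. No factor is called without a covariate, 3 are called with Alb and 1, Nr1i3, with the other markers.

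Of the other 28 liver transcription factors listed, none was called, 14 were higher and 14 lower, and the median log2 fold change was -0.03. Of these 28, 5 had an unadjusted p under 0.05, beside 13.0% of all genes. Cebpb, a C/EBP factor of the acute-phase response, was at 38.8 to 86.1 CPM in the controls and 115 to 221 CPM after PFSUV-IMQ, with no overlap (1.29 ± 0.29, adjusted p = 0.0550 in edgeR). CPM did not overlap in this direction for 6% of all genes. With Alb as a covariate Cebpb was called higher (1.29, adjusted p = 0.0183), the only one of the 28, beside 3.99% of all genes. Ppara, the receptor for fatty acids, was at 13.4 ± 13.0 and 5.32 ± 4.73 CPM (-1.34, adjusted p = 0.573). Of the 28, 5 had r to Alb above 0.8 over the 6 tumors, Ppargc1a and Nr5a2 at 0.90, Hlf and Gata6 at 0.85 and Klf15 at 0.84, beside 11.8% of all genes, and the median r of the 28 was 0.20.

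None of the listed targets of these factors was called without a covariate. Of 10 targets of Hnf4a, 5 were higher and 5 lower, with the highest log2 fold change, 0.57, for Apoc3, an apolipoprotein (adjusted p = 0.820 in edgeR). With Alb as a covariate none of the 10 was called. Of 6 tested Foxa targets 1 is Alb, which cannot be called where it is the covariate. Of the other 5, 3 were called higher with Alb as a covariate, beside 3.99% of all genes, namely Pck1 (2.54, adjusted p = 4.9e-04), the gluconeogenic enzyme, Igfbp1 (1.98, adjusted p = 0.0192), a binding protein of insulin-like growth factors, and Tat (2.33, adjusted p = 0.00359), the tyrosine aminotransferase, which was named after its value was seen. Without the covariate Pck1 was at 2.02 (adjusted p = 0.364), Igfbp1 at 2.57 (0.186) and Tat at 1.69 (0.583). The groups overlapped in CPM for all 3, and IMQNP 2 was the highest treated tumor for each. Pck1 was at 11.5 to 254.9 CPM in the controls and 135.8 to 1035 CPM after PFSUV-IMQ. Igfbp1 was at 14.9 to 42.0 and 28.8 to 440.1 CPM, and Tat at 9.50 to 286.6 and 63.0 to 899.3 CPM. The calls are given with IMQNP 2 included only. The 7 targets of Cebpa also include Alb, which cannot be called in that fit. Of them, Pck1, already counted as a Foxa target, and the glucose phosphatase gene G6pc (2.09, adjusted p = 0.0441) were called higher with Alb as a covariate. This again stands beside 3.99% of all genes. G6pc was at 2.44 to 88.7 CPM in the controls and 15.7 to 116.9 CPM after PFSUV-IMQ, highest in IMQNP 2.

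Of the 4 tested targets of Nr1h4, none was called in either fit, and its direct target Nr0b2 (SHP) was at 0.876 to 11.6 and 1.54 to 5.80 CPM (-0.61, adjusted p = 0.833 in edgeR). Abcb4, the phospholipid transporter of bile, was at -0.88 (adjusted p = 0.654). Among 5 tested genes of bile acid synthesis, Cyp7a1, the rate-limiting enzyme, had 2.12 to 55.7 CPM in the controls and 1.05 to 2.70 CPM after PFSUV-IMQ (-3.44 ± 0.85, adjusted p = 0.0759). With Alb as a covariate, Cyp7a1 was called lower (-2.49, adjusted p = 0.0143) and Cyp7b1, an enzyme of the alternative route, higher (1.72, adjusted p = 0.0395). In that fit 0.869% of all genes were called lower and 3.99% higher. Cyp7b1 was at 4.18 to 107.6 CPM in the controls and 23.6 to 242.6 CPM after PFSUV-IMQ, highest in IMQNP 2. Of 9 targets of Nr1i2 and Nr1i3, 6 were higher and 3 lower. Cyp2b10, a main target of Nr1i3, was at 0.455 ± 0.386 and 0.863 ± 0.942 CPM (0.84, adjusted p = 0.773), close to the level of 3 counts. Alas1, the heme synthesis enzyme, was at 28.5 ± 5.92 and 65.6 ± 40.2 CPM (log2 fold change 1.203, adjusted p = 0.164) and was called higher with Alb as a covariate (1.12, adjusted p = 0.0117). Its treated tumors ranged from 33.7 CPM to 124.5 CPM in IMQNP 2, and the groups overlapped.

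Few markers of other cells were called between the groups. None of the 13 matched hepatocyte markers was called, with Hpx, the heme carrier, at 0.88 (adjusted p = 0.665) and Fgg, a fibrinogen chain, at 0.83 (0.724). Nor was any of the cholangiocyte (6), macrophage (6), endothelial (6) or fibroblast (5) markers or of the 3 tested oncofetal markers, whose 5 members summed to only 5.17 to 10.8 CPM. The largest log2 fold changes were 0.52 for Sox9 and -0.13 for Spp1 (cholangiocytes), -0.75 for Csf1r and -0.42 for Adgre1 (macrophages), -0.83 for Stab2 and -0.63 for Kdr (endothelium), 0.87 for Col1a1 and 0.69 for Col1a2 (fibroblasts) and -0.43 for H19 and 0.36 for Gpc3 (oncofetal), with adjusted p of 0.388 to 0.951. Among 10 zonal hepatocyte genes none was called, and Sds, the serine dehydratase of periportal hepatocytes, was at 1.57 (adjusted p = 0.422) beside Pck1. With Alb as a covariate 2 of the 10 were called higher, beside 3.99% of all genes. They were Sds (2.01, adjusted p = 8.6e-04) and Pck1, the gene already counted above. Sds was at 1.575 to 21.6 CPM in the controls and 10.1 to 58.3 CPM after PFSUV-IMQ, highest in IMQNP 2. Vsig4, a receptor of Kupffer cells, the liver's resident macrophages, was called lower (11.9 to 28.4 CPM and 3.74 to 8.59 CPM, log2 fold change -1.62, adjusted p = 0.0453 in edgeR), a call that held in 1 of 8 fits with a tumor left out. It was 1 of 5 Kupffer cell markers, whose sum ranged from 69.1 to 174 CPM in the controls and from 48.4 to 87.3 CPM after PFSUV-IMQ. Whether these cells had a part in the difference of Nr1i3 was not tested.

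The genes whose pattern over the 8 tumors was most like the mean of the 9 factors were Proc (r = 0.998), the liver-made anticoagulant protein C, Gckr (0.994), the regulator of glucokinase, Adh1 (0.993), the alcohol dehydrogenase, Aspdh (0.993) and Igfals (0.992), the acid-labile subunit of the insulin-like growth factor complex. Likeness was measured by Pearson's r on log2 CPM, with each factor centred first, as a description with no test, and it is dominated by Control 4 and IMQNP 2. Over the other 6 tumors r was 0.97 to 0.99. Proc had 47.1, 65.6, 176 and 27.2 CPM in the controls and 28.0, 155.3, 52.4 and 47.5 CPM in IMQNP 1 to 4.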

How the data were processed

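RNA from 4 saline (Control) and 4 PFSUV-IMQ (IMQNP) tumors was sequenced after poly(A) selection with the KAPA mRNA HyperPrep kit. The authors deposited whole-number counts per gene, the input of every test. They also deposited signal values, in which the counts of a tumor are divided by its DESeq2 size factor (largest relative departure from a single factor 5.4e-10), used only to find the 9 genes by symbol. The submitters' processing notes name Trimmomatic 0.38, HISAT2 2.1.0 and featureCounts 2.0.0, while the study's methods name TopHat and HTSeq, so the aligner and counter are uncertain. The genome build and the use of strand are not given in the sources used here. All 55536 identifiers are in GENCODE M21, from which exon lengths, coordinates and overlaps were taken. Sequences were taken from RefSeq (GRCm38.p6).

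In R 4.3.3, edgeR 4.0.16 was run with TMM normalization, its default filter and the quasi-likelihood test, and p-values were adjusted over 15998 genes. DESeq2 1.42.0 was an alternative. CPM used the same TMM factors, and log2 CPM a prior count of 2. TPM were computed from union exon lengths and scaled to 1000000. Permutation tests were exact and two-sided (Python 3.11.15, scipy 1.17.1). Group names and replicate numbers came from the sample titles. The fits were checked on simulated counts. The named genes were the 9 factors, Alb, in each list every called gene or otherwise the 2 with the largest log2 fold change in size, and the 5 genes most like the mean of the factors. Not every gene that this rule names is reported here. Genes and lists were chosen with earlier results of these data known. The ratios, the fit on the other hepatocyte markers and the fits without the tumors of highest Alb were chosen after seeing the data. Depth was 16883911 to 27687756 counts per tumor, and a level of 3 counts covers counting error only. Of the 14 hepatocyte markers listed, 13 were matched by symbol.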

Additional observations from a re-analysis of the deposited data

Results flagged for a closer look

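In each group of 4 tumors, the distance of the highest or lowest tumor to its neighbour was compared with the range of the group by Dixon's criterion. Of the 20 groups tested, for the 9 factors and Alb, 5 held a tumor that stood apart. For normally distributed values chance gives about 1 in 20. The criterion was applied to CPM and not to log2 CPM, and such a distribution was not tested. The 5 are also not independent, since all lie in Control 4 or IMQNP 2. In IMQNP 2 these were Alb at 22740 CPM, Hnf4a at 247.9 CPM and Cebpa at 115.8 CPM. In Control 4 they were Nr1i2 at 15.16 CPM and Nr1i3 at 10.09 CPM.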

How the results depend on the processing

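The number of genes called higher was 362, and it was 619 with DESeq2's Wald test, 638 with Alb as a covariate and 197 to 375 with each tumor left out in turn. Those called lower numbered 32, against 63 without a filter on low counts, 133 with DESeq2, 139 with Alb as a covariate, 287 with the other hepatocyte markers as a covariate (121 without both tumors of highest Alb) and 8 to 38 with a tumor left out. Fewest higher calls were made without Control 1 (197), and fewest lower calls without IMQNP 4 (8). The 9 factors had 0 calls, and 1 with DESeq2, 3 with Alb as a covariate, 1 with the other markers, with or without both tumors of highest Alb, and 0 with any tumor left out. At equal Alb the 3 calls became 1 with the other markers, with or without those tumors, 0 with Alb and without them and 0 to 3 with a tumor left out. Of the other 28 liver factors, 0 were called, against 1 without a filter, 1 with DESeq2, 1 with Alb as a covariate, 2 with the other markers, and 0 to 1 with a tumor left out. Of 2 factors with r above 0.8, 1 was left with the other hepatocyte markers in place of Alb and 1 with Spearman's rho. No correlation was computed with a tumor left out, since fewer than 6 would remain. By coding length 5 of 9 factors kept their place in the level order. The cause of these changes was not tested.

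The replicate numbers did not pair the tumors. Same-numbered tumors had deviations that correlated at 0.29, -0.27 and -0.32. A fit with the replicate number as a block was run as well. Control 5 and IMQNP 2 have no partner of the same number, so they add nothing to the group difference in that fit. Its results therefore also reflect the loss of these tumors. With the replicate block, 416 of the 15998 genes were called higher and 267 lower. Among the calls were 1 of the 9 factors, Cebpa (-1.26, adjusted p = 0.0399 in edgeR), and 2 of the other 28 factors. Without a covariate, the sign of Hnf4a turned with the block and without IMQNP 2, that of Nr1h4 without Control 4 (0.58) or IMQNP 1 (0.05), that of Alb without Control 4 (0.56) or IMQNP 1, 3 or 4 (0.08 to 0.10) and that of Onecut1 with the block and without IMQNP 2 (-0.09). At this depth Nr1i3, with 4 to 17 reads in the treated tumors, and Onecut1, with 7 to 39, are limited by counting.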

Other observations

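In a pair of related liver factors, chosen after their values were seen, Onecut2 stood above Onecut1 in all 8 tumors. Onecut2 was at 29.97 ± 11.47 TPM (SD, n = 8), with a lowest value of 15.6 TPM, whereas Onecut1 did not exceed 1.39 TPM. The level of Onecut1 is uncertain, since 52.8% of its exon bases are shared with Gm20649. Dbp, a clock-controlled factor, was at 18.4 to 27.9 CPM in the controls and 7.47 to 17.5 CPM after PFSUV-IMQ, with no overlap (log2 fold change -0.82, adjusted p = 0.186 in edgeR). CPM did not overlap in this direction for 3.28% of all genes.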
